A study of Mus musculus with 2 samples.

Results

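The Sox genes encode transcription factors that bind DNA through a high-mobility-group domain, the HMG box, related to that of the sex-determining factor Sry. Here, 10 of these genes were described in mouse incisor, namely *Sox21*, *Sox2*, *Sox3*, *Sox4*, *Sox5*, *Sox6*, *Sox9*, *Sox10*, *Sox11* and *Sox12*. They were taken by name, as all array probes other than controls that carry 1 of these symbols, and make up 10 of the 21244 genes whose probes could be tied to a RefSeq symbol. The rule itself uses no measured value, but the list was drawn up with earlier results of these data known. Another 10 Sox genes on the array were set beside them.

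RNA of incisor was labelled in 1 colour (Cy3) and read on Agilent SurePrint G3 arrays of mouse genes, with 1 array of wild-type and 1 array of *Sox21* KO mice. The sample labels give the age as postnatal day 0 and the tissue as incisor, whereas the study's methods give postnatal day 1 and tooth germs. The study used C57BL/6J mice as wild-type and a *Sox21* KO line obtained as a gift. It also describes a reporter allele in which GFP was inserted at the *Sox21* locus. The study credits this allele and its *Sox21* KO mice to the same earlier work, by Kiso and colleagues, and shows the GFP in heterozygous *Sox21* mice. It does not state outright that the KO mice of the arrays carried GFP. Neither the number of animals behind an array nor the deleted part of *Sox21* is given in the sources used here, so a *Sox21* probe outside the deleted part would be no check of the genotype. With 1 array a genotype there are no replicates, so no difference below was tested, and every value compares these 2 arrays alone.

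Sox proteins are grouped by the similarity of their HMG box, and members of a group often act in the same cells. Group B1, with Sox2 and Sox3, activates genes that keep neural and epithelial progenitors undifferentiated, whereas Sox21, of group B2, acts mostly as a repressor and has been described as an opponent of Sox2 in the developing nervous system. Sox4, Sox11 and Sox12 of group C are factors of embryonic progenitors, neurons and mesenchyme. Sox5 and Sox6 of group D lack a transactivation domain of their own and cooperate with Sox9 of group E in cartilage, whereas Sox10, also of group E, specifies glia and melanocytes of the neural crest. In the incisor, Sox2 marks epithelial stem cells of the cervical loop, the niche from which the enamel-forming ameloblasts are renewed, and Sox21 is present in differentiating ameloblasts.

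The arrays read each gene through probes of 60 bases, and the probes that the results turn on are shown for that reason, 5′ to 3′ and in lower case unless stated. Coordinates are those the files give for mm9, in which the *Sox21* probes lie on the minus strand at chr14:118633351-118633410 (probe 1) and chr14:118633788-118633847 (probe 2), the *Sox2* probe on the plus strand at chr3:34550773-34550832, and the *Sox9* probe on the plus strand at chr11:112648809-112648868. Of each of these, the first 30 bases are printed. No transcript models of that build were used, so the exon or untranslated region of a probe is not given.
Sox21 probe 1: tatatgagagatgaccgccgttccttttgt
Sox21 probe 2: agagcgtgtggatttcgcagcatcattccc
Sox2 probe: tggcaatcaaatgtccattgtttataagct
Sox9 probe: ataaaaccttaaagcgttcttataatatgg

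*Sox21*, the deleted gene, was lower on the KO array by both of its probes but was well above background on it. The processed signal of probe 1, an intensity from which the scanner software had removed background, was 1362 ± 136 in wild-type and 659 ± 66.1 in *Sox21* KO, where ± is the error that this software gives for a spot. That of probe 2 was 286 ± 29.0 in wild-type and 103 ± 11.3 in KO. Signals were then scaled by a 75th percentile taken over the spots of each array, which was 268 in wild-type and 276 in KO. On this normalized scale probe 1 went from 5.09 to 2.39, a log2 ratio (KO minus wild-type) of -1.09 and 47.0% of the wild-type value. Probe 2 went from 1.07 to 0.375, a log2 ratio of -1.51 and 35.1% of the wild-type value. The differences were 5.33 and 6.99 times the error that the software values give for the log2 ratio, an error that does not cover differences between animals or dissections. None (0) of the 308 negative control spots of either array reached the signal of a *Sox21* probe there.

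Among the 13796 genes that were well above background on both arrays, which are called measured below, 67 genes (0.486%), *Sox21* included, had a log2 ratio as low as that of *Sox21* probe 1 or lower. Of the measured genes, 92 (0.667%) were at least 2-fold lower in *Sox21* KO and 102 (0.739%) were at least 2-fold higher. Against that background, 1 of the 7 measured members of the Sox list was at least 2-fold lower, namely *Sox21* itself, and 0 were at least 2-fold higher. In RNA of a whole tissue, fewer cells of a type and less RNA per cell cannot be told apart.

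**Figure D1:**
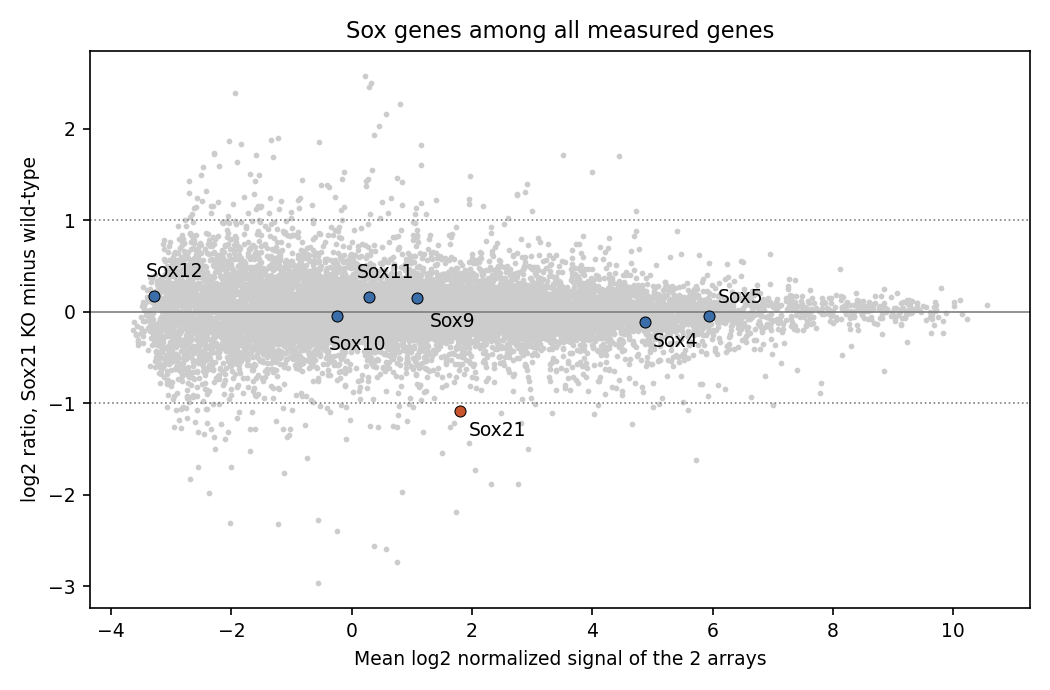
Log2 ratio (*Sox21* KO minus wild-type) against the mean log2 normalized signal of the 2 arrays for 13796 measured genes (grey), with the 7 measured members named and dotted lines at 2-fold. *Sox21* lies below the lower dotted line at -1.09, and the other 6 lie between -0.11 and 0.18. The horizontal axis mixes probes of different brightness and does not rank genes by abundance.

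*Sox2*, the stem cell factor of the cervical loop, was well above background in *Sox21* KO and not in wild-type. Its only probe had a signal of 22.6 ± 5.27 in wild-type and 56.4 ± 7.06 in KO. In wild-type, 3 of the 308 negative control spots were as bright or brighter, and in KO 0 were. On the normalized scale *Sox2* was 2.43-fold higher in *Sox21* KO, a log2 ratio of 1.28 with an error of 0.382. This is the plain ratio of the 2 values and not a lower bound. Since the wild-type signal was not well above background, its size is uncertain. The wild-type signal lay near the lowest that the software marked as well above background on that array, 21.3, whereas in KO this lowest signal was 19.5. Where background was removed by a convolution model (normexp) that pulls dim signals together, the log2 ratio of *Sox2* was 0.43, against 1.26 to 1.34 under the scalings of the processed signal.

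*Sox3*, the other B1 member, which acts in neural and pituitary progenitors, was well above background on neither array. Its signal was 7.92 ± 4.62 in wild-type and 4.18 ± 4.19 in KO, so no ratio is given. Of the B genes that were not members, *Sox1*, a factor of neural progenitors, was measured by 2 probes, with signals of 77.4 in wild-type and 67.4 in KO (log2 ratio -0.24) by probe 1 and of 56.1 and 54.6 (-0.08) by probe 2. *Sox14*, the closest relative of *Sox21*, was well above background on neither array.

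The signals of the 16 member probes show where a level could be read at all. For *Sox21* the pair of values lay apart on both probes, and for *Sox2* apart with the wild-type value near background, whereas the pairs of *Sox4*, *Sox9*, *Sox10* and *Sox11* nearly coincided.

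**Figure D2:**
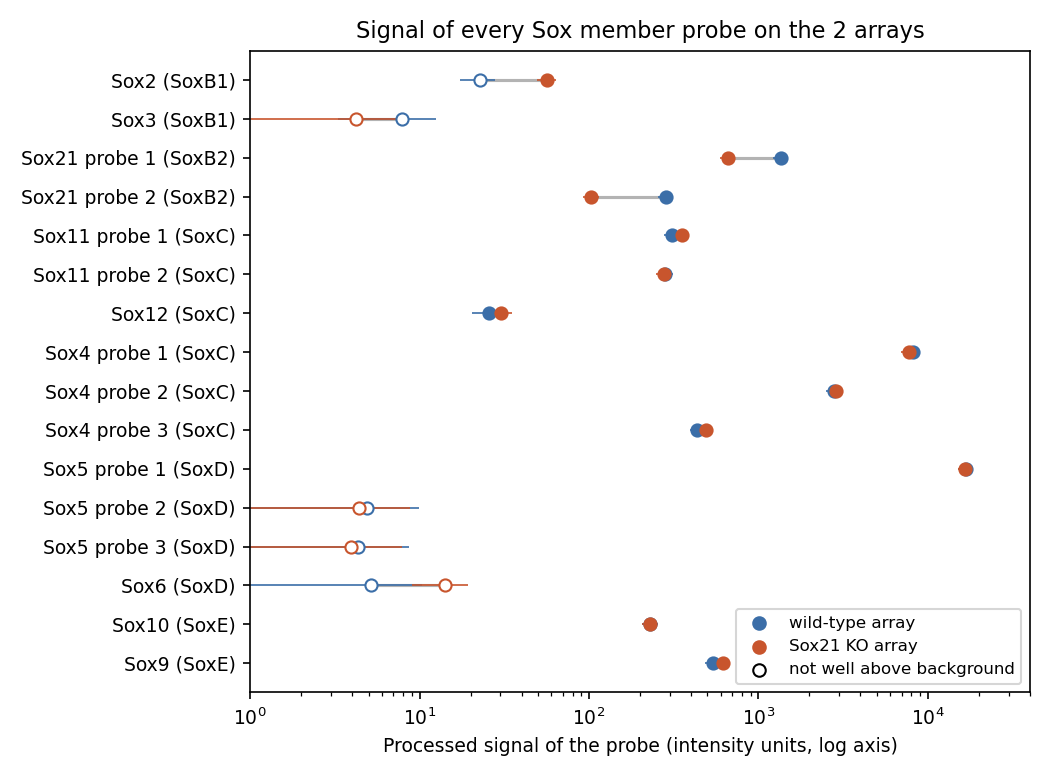
Processed signal (intensity, log axis) of the 16 probes of the 10 members on the wild-type (blue) and *Sox21* KO (red) arrays, with the software's error as bars, which may run past the left edge. Open circles mark signals not well above background, which are those of *Sox3*, *Sox6*, *Sox5* probes 2 and 3, and *Sox2* in wild-type. Positions can be compared within a probe and not between probes.

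The group C genes differed little between the arrays. *Sox4*, which acts in embryonic mesenchyme, epithelium and neurons, was read by 3 probes, with signals of 8159 in wild-type and 7766 in KO for probe 1, of 2794 and 2855 for probe 2, and of 436 and 492 for probe 3. Their log2 ratios were -0.11, -0.01 and 0.13, so that the direction depended on the probe, and the errors were 0.204 to 0.206. The 3 probes lie on the minus strand at chr13:29040826-29040885, chr13:29042856-29042915 and chr13:29044482-29044541.

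*Sox11*, the close relative of *Sox4* in neurons and mesenchyme, was read by 2 probes that also differed in direction. Probe 1 (chr12:28020087-28020146) had a signal of 308 in wild-type and 356 in KO, and probe 2 (chr12:28019541-28019600) of 283 and 277, for log2 ratios of 0.17 and -0.07. *Sox12* (chr2:152220036-152220095) was dim, at 25.8 ± 5.34 in wild-type and 30.02 ± 5.30 in KO. On the wild-type array, 3 of the 308 negative control spots were as bright or brighter. Its log2 ratio was 0.18, with an error of 0.392. Each of these 3 ratios was smaller than its error.

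The third *Sox4* probe is printed whole beside the probe of *Sox15*, a gene of group G, which lies on the plus strand at chr11:69469212-69469271, because of all 368 pairs of probes of different Sox genes these share the longest run, 13 bases, marked in capitals.
Sox4 probe 3: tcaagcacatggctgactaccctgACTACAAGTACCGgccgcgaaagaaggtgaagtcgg
Sox15 probe: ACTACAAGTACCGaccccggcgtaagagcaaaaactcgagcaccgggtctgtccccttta

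The next longest shared run was of 9 bases, between *Sox5* probe 3 and the *Sox15* probe. The *Sox15* signal was 5.64 ± 5.19 in wild-type, where it was not well above background, and 27.4 ± 5.58 in KO, where it was. *Sox15*, which acts in muscle progenitors, had a normalized KO signal 1.25-fold the lowest well-above-background value of the wild-type array. This bound takes no account of the signal errors, and the log2 ratio of 2.24 had an error of 1.36. With normexp the log2 ratio of *Sox15* was 0.29, which is below that bound.

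In group D, *Sox5* had 1 bright probe and 2 at background. Probe 1 had a signal of 16705 in wild-type and 16672 in KO, a log2 ratio of -0.04. Probes 2 (chr6:143787982-143788041) and 3 (chr6:143781520-143781579) had signals of 4.91 and 4.33 in wild-type and of 4.39 and 3.95 in KO, and none of these was well above background. The bright probe consists of G and A alone, and the files place only 27 of its 60 bases, at chr6:143776945-143776971 on the minus strand. Its first 30 bases are shown for this composition, with repeats of GGA in capitals.
Sox5 probe 1: GGAGGAGGAGGAagaGGAGGAGGAGGAaga

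The array holds 23 probes made of G and A alone, under 18 gene names. Both arrays read 22 (95.7%) of these well above background, against 46.6% of the 55656 other probes. Their median signal was 9099 in wild-type and 7315 in KO, against 22.2 and 21.4 for the other probes. The log2 ratios of the 22 ran from -0.70 to 0.11, with a median of -0.20. Whether the bright signal of *Sox5* probe 1 came from *Sox5* RNA was not tested, and the other probes of *Sox5* gave no level, so the ratio of this gene is uncertain.

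*Sox6* (chr7:122615418-122615477), which acts beside *Sox5* in cartilage and also in erythroid and muscle cells, was well above background on neither array, with signals of 5.18 ± 5.19 in wild-type and 14.2 ± 5.09 in KO. *Sox13*, the remaining gene of the group, known from T lymphocytes, was measured, at 647 in wild-type and 531 in KO. Its log2 ratio of -0.33, with an error of 0.205, was the lowest of any measured Sox gene other than *Sox21*, and 9.48% of all measured genes were as low or lower.

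*Sox9*, which drives cartilage and also acts in epithelial stem cells, was printed 10 times on each array, so that the scatter of repeat spots can be seen. Its 10 signals ran from 504 to 585 in wild-type, with a median of 542, and from 570 to 685 in *Sox21* KO, with a median of 621. The 2 ranges overlapped. The normalized signal was 2.02 ± 0.0956 in wild-type and 2.25 ± 0.156 in KO (mean ± SD over 10 spots of 1 array). The log2 ratio was higher in KO at 10 of 10 spots, with a mean of 0.15, an SD of 0.0984 and a range of 0.01 to 0.28. The spots share 1 hybridized sample, so their scatter is that of the printing and scanning only. Over all measured genes, 48.1% had a log2 ratio at least as far from 0.

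**Figure D3:**
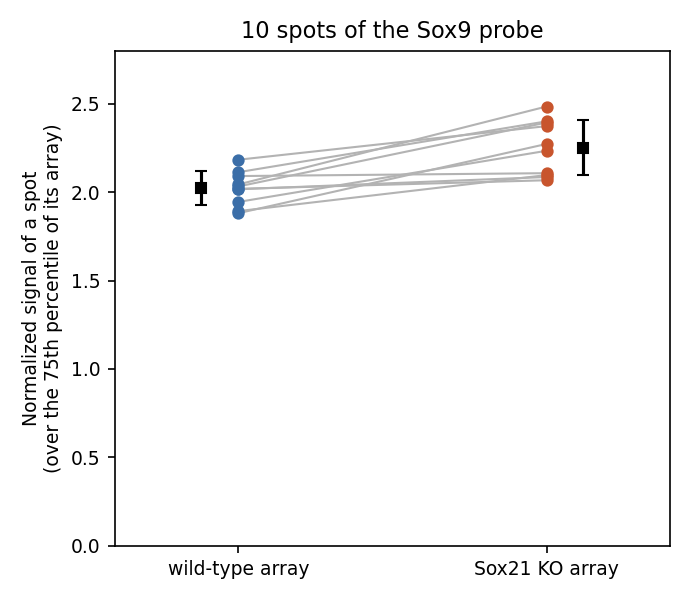
Normalized signal (signal over the 75th percentile of the array) of the 10 spots of the *Sox9* probe, with a line joining the values of each spot and black squares for the mean ± SD over spots. The mean was 2.02 in wild-type and 2.25 in *Sox21* KO. The spots are repeats within 1 array for each genotype and not samples.

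*Sox10* (chr15:78985518-78985577), the neural crest and glial factor, had a signal of 230 ± 23.7 in wild-type and 229 ± 23.4 in *Sox21* KO. Its log2 ratio was -0.05, with an error of 0.209. *Sox8*, the remaining gene of group E, was well above background on neither array.

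Without *Sox21*, the 6 other measured members had log2 ratios from -0.11 to 0.18, with a median of 0.05, and 3 were higher and 3 lower in *Sox21* KO. Without *Sox5* as well, whose ratio is uncertain, the median of the remaining 5 was 0.154, with 3 higher and 2 lower. The median absolute log2 ratio was 0.133 over the 6 and 0.154 over the 5, against 0.146 over all measured genes. Of the 10 Sox genes that were not members, 5 were measured, 1 higher and 4 lower, with a median of -0.14. In group F, whose genes act in endothelium, *Sox7* had a log2 ratio of -0.14, *Sox18* of -0.12, and *Sox17* of 0.09 and 0.21 by its 2 probes. *Sox30*, a testis factor, and *Sry* were well above background on neither array. Over the 11 measured Sox genes other than *Sox21*, 0 were at least 2-fold apart between the arrays. *Sox2* and *Sox15*, well above background on the KO array alone, are not among these 11.

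**Figure D4:**
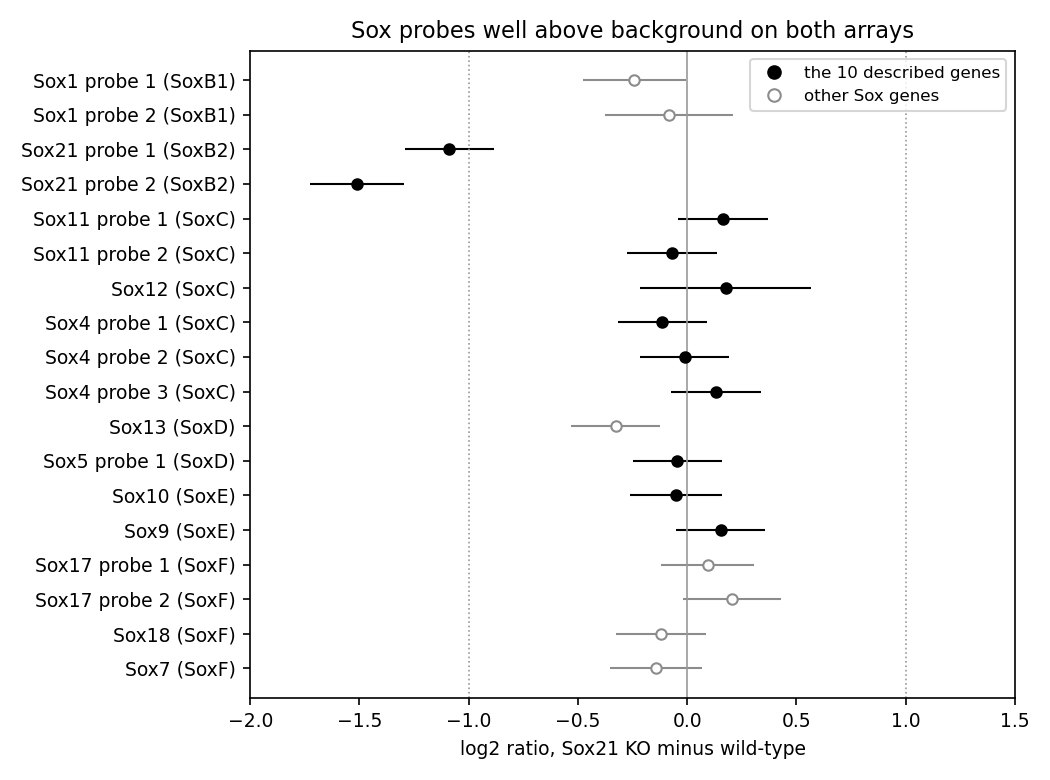
Log2 ratio (*Sox21* KO minus wild-type) of each Sox probe that was well above background on both arrays, ordered by group, with the error from the software values as bars and dotted lines at 2-fold. Both *Sox21* probes lie left of -1, and every other probe lies between -0.33 and 0.21. The error bars do not cover differences between animals.

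Markers of the cells in which these factors are known to act were also read. For *Sox21*, all 7 ameloblast genes were measured, 2 higher and 5 lower in KO, with a median log2 ratio of -0.62. Of these, *Amtn*, an adhesive protein of maturing enamel, was at -1.89 (signal 3495 in wild-type and 972 in KO), and the enamel protease *Klk4* at -1.05. The enamel matrix genes *Amelx*, *Ambn* and *Enam* were at 0.08, -0.23 and -0.65, and the protease *Mmp20* at -0.62. *Odam*, an enamel-associated protein, went furthest the other way, at 0.63 (9612 in wild-type and 15331 in KO). *Amtn* and *Klk4* were the genes of this list at least 2-fold lower.

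For *Sox2*, 7 of 8 genes of dental epithelial stem cells and the cervical loop were measured, 5 higher and 2 lower, with a median of 0.11. *Lgr5*, a receptor of Wnt-responsive stem cells, had a signal of 39.5 in wild-type and 145 in KO, a log2 ratio of 1.84. *Bmi1*, *Lrig1* and *Igfbp5* were at -0.04, 0.39 and 0.10. The general epithelial genes, all 8 measured, had a median of 0.20, with 6 higher and 2 lower, and *Krt14* was at 0.18, *Krt5* at 0.25, *Cdh1* at -0.09 and *Epcam* at 0.13. Their part in the *Sox2* difference was not tested.

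For *Sox9*, *Sox5* and *Sox6*, 10 of 13 cartilage genes were measured, 7 higher and 3 lower, with a median of 0.42 and a range of -0.44 to 0.89. *Col2a1*, the main collagen of cartilage, had a signal of 2857 in wild-type and 4919 in KO, a log2 ratio of 0.74, and *Acan*, its large proteoglycan, was at 0.36. *Col9a1* and *Col9a2* were at -0.03 and -0.04, and *Matn1*, *Matn3* and *Cnmd* were well above background on neither array. The part of cartilage cells in the *Sox9* difference was not tested. Of the 9 hair follicle stem cell genes, where *Sox9* also acts, 4 were higher and 5 lower, with a median of -0.01. The keratin *Krt15* was at 1.70, whereas *Lhx2*, *Nfatc1*, *Tcf7l1* and *Tcf7l2* were at -0.22, 0.13, 0.16 and -0.18. The lowest of this list was *Lgr6*, a stem cell receptor, at -0.71 (458 in wild-type and 288 in KO).

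For *Sox10*, the Schwann cell and glial list had 9 of 12 genes measured, 5 higher and 4 lower, with a median of 0.02. The 9 ran from -0.33 to 0.19, and the highest was *Foxd3*, a neural crest factor. *Erbb3* and *Cdh19* were well above background on neither array. In the melanocyte list, 6 of 8 genes were measured, 4 higher and 2 lower, with a median of 0.51. *Mitf*, the master factor of melanocytes, was at 0.98, and the pigment enzymes *Dct* and *Tyr* at 0.61 and 0.44, whereas *Pmel* was at -0.09 and *Ednrb* at -0.13, and *Tyrp1* and *Mlana* were well above background on neither array. With normexp the median of this list was 0.331. *Dct* also lies within 1 Mb of *Sox21*, where 8 genes were measured, with log2 ratios from -0.71 (*Dnajc3*) to 0.61 (*Dct*).

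For the group C genes, 6 of 8 neuron genes were measured, 2 higher and 4 lower, with a median of -0.14, which was -0.337 with no filter on dim probes. The neurofilament gene *Nefl* was at -1.21, with a signal of 66.6 in wild-type and 29.7 in KO, and the tubulin *Tubb3* at -0.57. *Dcx*, *Stmn2* and *Gap43* were at -0.13, 0.12 and -0.14. *Elavl3*, well above background in wild-type alone, was there 1.49-fold the larger of its KO value and the lowest well-above-background KO value. The mesenchyme list, all 8 measured, had a median of 0.13, with 5 higher and 3 lower, and *Vim*, *Cdh2*, *Col1a1* and *Col3a1* were at 0.29, -0.44, 0.11 and -0.12.

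For the other factors, all 7 endothelial genes were measured, 5 higher and 2 lower, with a median of 0.09, and *Pecam1*, *Cdh5*, *Kdr* and *Tek* were at 0.62, 0.07, -0.02 and 0.64. Of 8 skeletal muscle genes, 7 were measured, 1 higher and 6 lower, with a median of -0.59. *Acta1* and *Tnnc2* were both at -0.59 and *Myh3* at 0.64, and *Myod1* was well above background on neither array. Of 8 erythroid genes, 3 were measured, all lower, with a median of -0.18 that turned to 0.04 with a looser filter on dim probes, among them the globins *Hba-a1* at -0.36 and *Hbb-bt* at -0.18. Over all measured genes the median was 0.01, and 52.4% were higher in KO. The lists are small and mix genes that vary together, so their medians are descriptions of these 2 arrays.

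**Figure D5:**
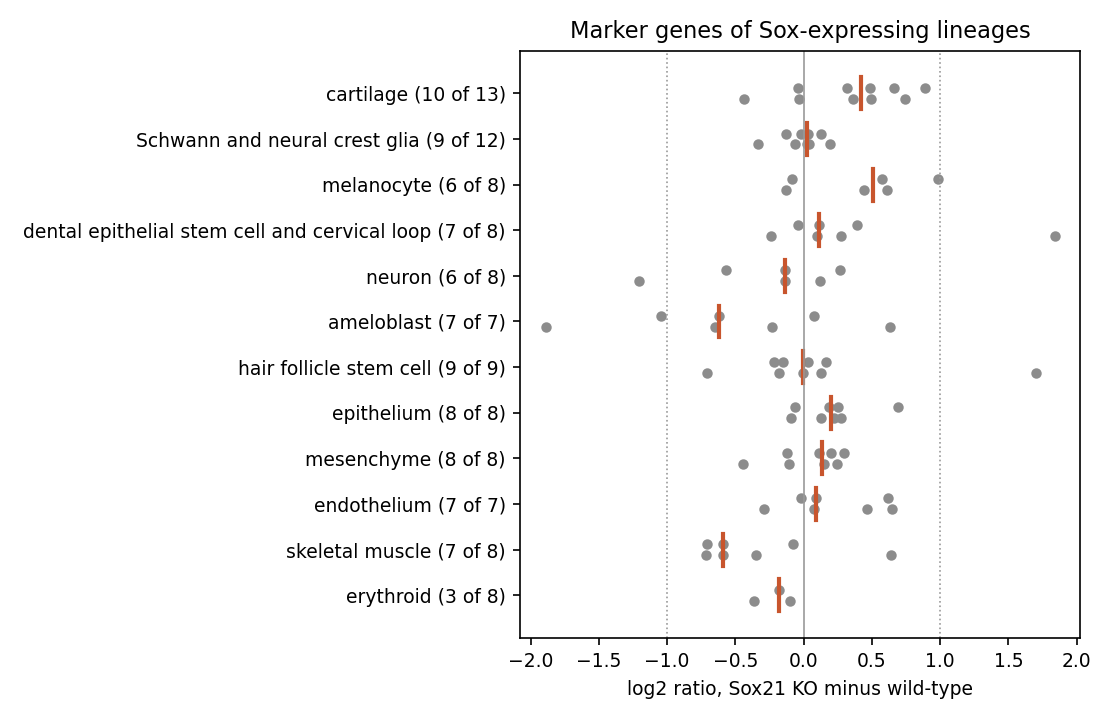
Log2 ratio (*Sox21* KO minus wild-type) of the measured genes of 12 marker lists (grey points, with the measured and listed numbers of genes in parentheses) and the median of each list (red line). The ameloblast and skeletal muscle medians lie at -0.62 and -0.59, and the melanocyte and cartilage medians at 0.51 and 0.42.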

How the data were processed

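The values compare 1 wild-type and 1 *Sox21* KO incisor sample. The authors labelled RNA with Cy3, scanned the arrays with Agilent Feature Extraction 10.7.3.1, per the submitters' processing notes, and deposited spot by spot the processed signal intensity, its error and other marks, among them 1 for signals well above background. A second table deposited by the authors holds linear ratios, which were found to be each processed signal over 1 number per array, to a relative difference of 2.69e-06. The methods name a percentile shift. Each array has 62976 spots, of which 59305 are no controls. Of these, 49.7% were well above background in wild-type and 50.4% in KO, and 0 were saturated. Signals were divided by the 75th percentile over all spots, averaged over the spots of a probe and compared on the log2 scale as KO minus wild-type. On 283 measured probes with repeat spots, the median SD of the log2 ratio between spots was 0.0845.

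Left out were 267 spots marked as outliers, which left 55679 probes. Symbols came from RefSeq genes of GRCm38.p6, by accession for 26298 probes, by symbol for 2044 and by an older symbol for 355, and 26982 kept the file's name. A gene took the brightest of its probes whose spots were all well above background on both arrays. For a gene well above background on 1 array only, the fold was taken as the bright value over the dim value or, if larger, over the lowest well-above-background value of the dim array. It takes no account of the errors of the values, and for *Sox2* it is the plain ratio and no bound. Named are all Sox genes and, from each marker list (ameloblast, dental epithelial stem cell, epithelium, cartilage, hair follicle stem cell, Schwann cell and glia, melanocyte, neuron, mesenchyme, endothelium, skeletal muscle, erythroid), the genes past 2-fold and up to 4 at its head. The markers *Cdh19*, *Mlana*, *Matn1*, *Matn3* and *Cnmd*, which were at background, and the genes *Odam*, *Pmel*, *Ednrb*, *Lgr6* and *Dnajc3* were named after their values were seen. *Elavl3* also lies outside that rule. Some genes that this rule takes are not reported here. *Ahsp*, of the erythroid list, had no matched symbol. The genes and lists were chosen with earlier results of these data known. With 1 array a genotype, no test was run. Other scalings, background correction, filters, probe choices and thresholds were tried. The steps were tested on simulated data. Python 3.11.15, numpy 2.4.6, pandas 2.3.3, matplotlib 3.10.9, R 4.3.3 and limma 3.58.1 were used.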

Additional observations from a re-analysis of the deposited data

How the results depend on the processing

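With 1 array for each genotype, differences between animals, litters or dissections cannot be told apart from the genotype, and dim probes (*Sox2*, *Sox12*, *Sox15*) are limited by background. The log2 ratio of *Sox21* stayed between -1.30 and -1.05 under the 9 alternatives, and -1.30 was its mean over probes. The mean over probes was 0.0479 for *Sox11* and 0.0025 for *Sox4*, whose brightest probe gave -0.11. After normexp, *Sox12* was at 0.0383 and *Sox10* at 0.01, and under quantile normalization *Sox5* was at 0.002, so that 4 measured members were higher and 3 lower under either setting, in place of 3 and 4. Members at least 2-fold apart numbered 2 with the looser filter on spots positive and significant over background, against 1. With no filter they were 3 of 10, namely *Sox21*, *Sox2* and *Sox6*, of which *Sox6* was well above background on neither array. The genes at least 2-fold higher numbered 46 after normexp, 292 with the looser filter, 508 with no filter and 441 at 1.5-fold, and those lower 40, 321, 695 and 412. With no filter these counts are out of 21244 genes. The scalings moved the median of all genes by at most 0.015. With the 95th percentile of the negative controls as the floor, the bound of *Sox15* was 4.44. The fold of *Sox2* could not change, since its wild-type signal exceeded either floor. The erythroid median went from -0.18 to 0.04 with the looser filter and the melanocyte median from 0.51 to 0.331 with normexp. With no filter the neuron median went from -0.14 to -0.337, that of cartilage from 0.42 to 0.318 and that of skeletal muscle from -0.59 to -0.467. No paired analysis was possible because each genotype has 1 array.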
